A study of Mus musculus with 17 samples.

Results

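Nos1, Nos1ap, Nos3, Prkg1 and Prkg2 are 5 genes of the nitric oxide pathway, taken by symbol from the 25239 genes of the deposited count tables. They were described in 17 brain RNA libraries from mice of the DAT-cre line, in which Cre is placed under the dopamine transporter gene. The mice were called perseverers (the addicted animals) or renouncers (the non-addicted animals) by their behaviour in oDASS, a protocol in which a mouse stimulates its own dopamine neurons with light. Tissue imprints of the orbitofrontal cortex (OFC) came from before the protocol, with 3 libraries of renouncers and 2 of perseverers. Dissections of the OFC and of the medial prefrontal cortex (mPFC) came from after it, with 3 libraries for each phenotype in each area. All groups shared the line, and none was a group of animals kept out of the protocol. Nos1 was on the list because it had been seen lower in OFC than in mPFC and among the leading genes between phenotypes in mPFC, so it was chosen by its measured values there. The members' values in those contrasts are given as a description, without a test.

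Nitric oxide synthases make the gas nitric oxide from arginine, with tetrahydrobiopterin as cofactor. Nitric oxide binds soluble guanylyl cyclase, which makes cyclic GMP (cGMP), and cGMP activates the protein kinases encoded by Prkg1 and Prkg2 until phosphodiesterases break it down. In cortex, neuronal nitric oxide synthase is made mainly by GABA interneurons, most strongly by a sparse class of long-range cells that also make somatostatin and neuropeptide Y.

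Dissection libraries held 12392731 to 20945108 counts, and imprint libraries 8960549 to 10662666. Haemoglobin genes took at most 0.0787% of the counts of a dissection. In the imprints they took 85.4 to 90.7% in 4 libraries and 29.7% in renouncer replicate 1, which stood apart with 6556052 counts outside haemoglobin against 980536 to 1306627. Levels are therefore CPM, the usual count scaled to library size, with the trimmed mean of M values (TMM) as scaling in dissections, and CPM of the counts outside haemoglobin genes wherever imprints are shown. The labels do not say that replicates are separate animals, so the tests measure the spread between these libraries only.

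Nos1, which encodes neuronal nitric oxide synthase, was the member with the clearest pattern. In OFC its level was 7.65, 10.3 and 7.42 CPM in the 3 renouncers and 8.75, 12.5 and 7.76 CPM in the 3 perseverers. In mPFC its level was 17.5, 21 and 16.5 CPM in renouncers and 29.1, 34.4 and 37.4 CPM in perseverers. Every mPFC library lay above every OFC library, and within mPFC every perseverer lay above every renouncer. For any gene, full separation of 3 against 3 libraries in either direction has a permutation p of 0.1, from 20 splits. The share of all genes without overlap was not counted, so lack of overlap is given as a description here and below. The group means were 8.44 ± 1.58 and 9.66 ± 2.48 CPM in OFC renouncers and perseverers, and 18.3 ± 2.35 and 33.6 ± 4.22 CPM in mPFC renouncers and perseverers (SD, n = 3 each). In that order of levels, the lowest neighbours, the 2 OFC groups, did not differ beyond their spread, while the other neighbours did not overlap. These values rest on 105 to 233 Nos1 counts per OFC library and 211 to 628 per mPFC library. In bulk tissue, fewer cells that make a transcript and less of it per cell cannot be told apart.

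**Figure D1:**
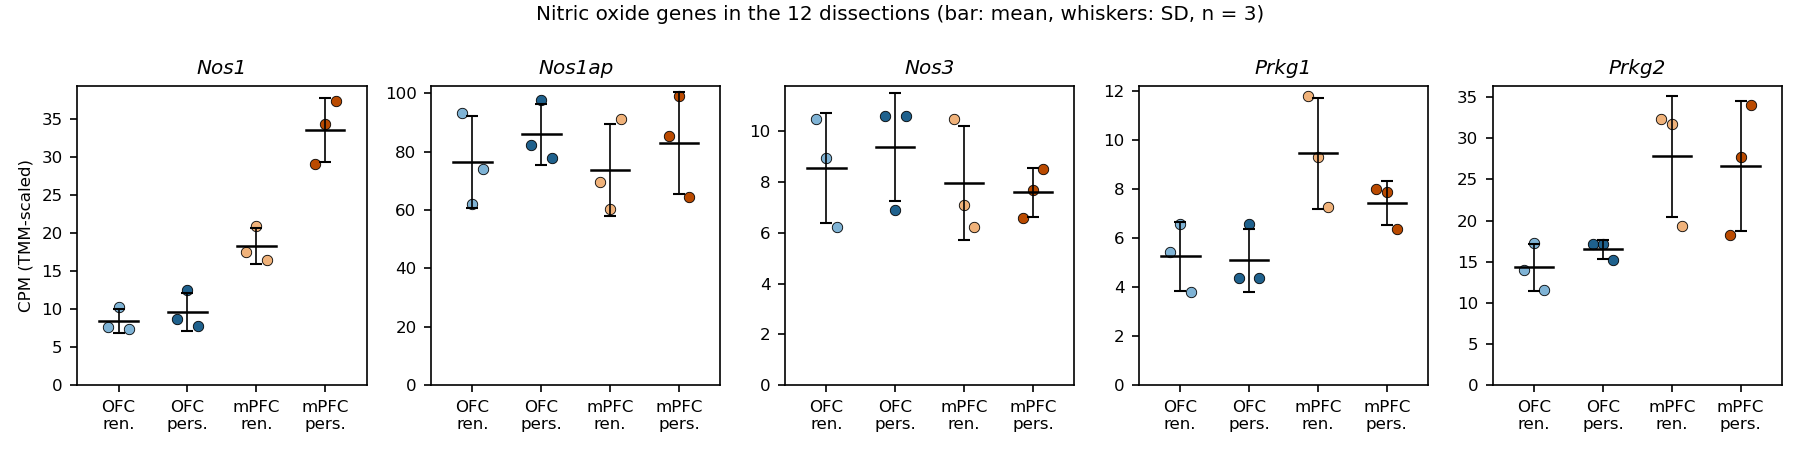
Level of each of the 5 genes (vertical axis, TMM-scaled CPM, own linear scale per panel from 0) in the 4 groups of dissections; points are libraries, horizontal bars means and whiskers SD over 3 libraries. Mean Nos1 is 8.44 CPM in OFC renouncers and 33.6 CPM in mPFC perseverers, Prkg2 is higher in every mPFC library than in every OFC library, and the groups of Nos1ap and Nos3 overlap.

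As a description, the log2 difference of Nos1 between mPFC and OFC dissections was 1.46 ± 0.175 (SE), or 2.76-fold higher in mPFC. It was 1.12 ± 0.222 in renouncers and 1.79 ± 0.222 in perseverers. In this comparison 266 of 14409 genes, or 1.85%, passed an adjusted p of 0.05 (edgeR quasi-likelihood test), 0.909% as higher and 0.937% as lower in mPFC, a background from which nothing is read for Nos1 since the contrast was used to choose it. The perseverer minus renouncer difference of Nos1 within mPFC was 0.88 ± 0.204 on the log2 scale, or 1.83-fold. After the dependence of each library on transcript length was removed, the same difference was 0.67. Nos1 has a deposited length of 9695 bases, longer than 97% of the genes. The rank correlation of gene deviations with length differed between libraries, at 0.283, 0.312 and -0.03 in the mPFC perseverers and -0.05, -0.116 and -0.375 in the mPFC renouncers, each over 8394 genes. The part of transcript length in the Nos1 difference was not tested beyond that value.

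Between phenotypes in mPFC, 0 of 14375 genes (0%) passed the edgeR test after adjustment, with 639 at an unadjusted p under 0.05. DESeq2 and limma also called 0, with 767 and 2139 genes at that unadjusted level. In simulated counts the edgeR test recovered 25.8% of genes changed 2-fold, so 0 passing does not mean no difference. The phenotype difference of Nos1 in mPFC exceeded that in OFC by 0.67 ± 0.31 on the log2 scale, given as a description. Without OFC perseverer replicate 2, the library with the highest Nos1 level in OFC, that value was 0.96.

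None of the 4 listed markers of the interneuron class that makes neuronal nitric oxide synthase most strongly passed between phenotypes in mPFC. Sst, which encodes somatostatin, was at 449, 424 and 622 CPM in mPFC renouncers and at 317, 293 and 336 CPM in mPFC perseverers. All 3 perseverers were below all 3 renouncers, at a log2 difference of -0.66 ± 0.187 that did not pass after adjustment (edgeR, adjusted p = 0.943). Npy, which encodes neuropeptide Y, overlapped between the groups, at 175, 142 and 249 CPM in mPFC renouncers and 162, 154 and 139 CPM in mPFC perseverers (log2 difference -0.31 ± 0.21). Chodl, a membrane protein that marks the long-range class, was near its detection limit at 2.11, 1.58 and 3.91 CPM in mPFC renouncers and 1.01, 0 and 0.894 CPM in mPFC perseverers. Of the 4 listed markers (Sst, Npy, Chodl and the substance P receptor Tacr1), 4 were lower in mPFC perseverers, with a median log2 difference of -1.02 against 0.0035 over all genes tested, and 0 passed. Their summed level was 572 to 874 CPM in mPFC renouncers and 448 to 483 CPM in mPFC perseverers. That sum was almost all Sst and Npy, since Chodl reached at most 3.91 CPM and Tacr1 at most 4.5 CPM in mPFC. The median, in turn, depends on Chodl and Tacr1, which were near the detection limit. Tacr1 was at 0 in at least 1 library of each of these groups. The part of these cells in the Nos1 difference was not tested.

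**Figure D2:**
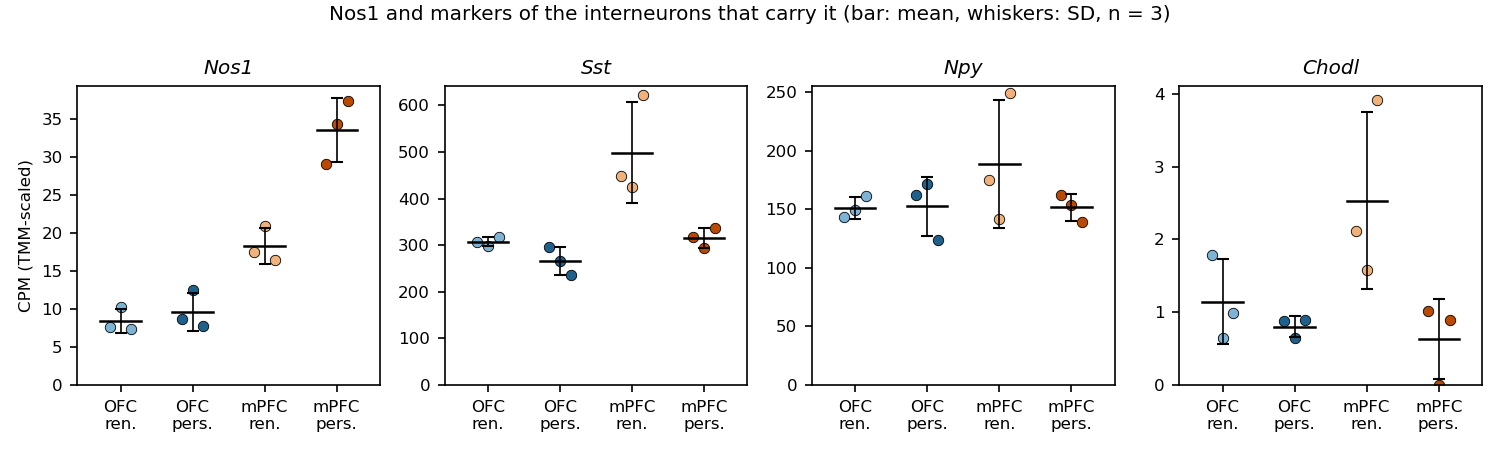
Levels of Nos1 and of 3 markers of Nos1 interneurons (vertical axes, TMM-scaled CPM, linear from 0) in the 4 groups of dissections; points are libraries, horizontal bars means and whiskers SD over 3 libraries. In mPFC, Nos1 is higher and Sst lower in every perseverer than in every renouncer, whereas Npy overlaps.

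Between areas none of these markers passed in the main fit, which does not pair libraries. The summed level of the 4 markers was 360 to 479 CPM in OFC and 448 to 874 CPM in mPFC. Sst was at 298 to 317 CPM in OFC renouncers and 235 to 297 CPM in OFC perseverers, and its log2 difference between mPFC and OFC was 0.47 ± 0.122 (edgeR, adjusted p = 0.0637). Over all alternatives (edgeR, DESeq2 and limma) that adjusted p ran from 0.00892 to 0.975. Npy differed by 0.16 ± 0.135 on the log2 scale (edgeR, adjusted p = 0.669). Markers of other cell types are given beside the Nos1 values. Between areas, 2 marker genes passed, both lower in mPFC, namely the astrocyte gene Gfap (log2 difference -1.39 ± 0.222; edgeR, adjusted p = 0.00459) and the striatal projection neuron gene Ppp1r1b (-0.76 ± 0.124; edgeR, adjusted p = 0.00474). The 6 astrocyte markers summed to 3020 to 4140 CPM in mPFC and 3300 to 4740 CPM in OFC, with 5 of 6 lower in mPFC, and the 8 striatal markers to 219 to 307 and 305 to 349 CPM, with 3 of 7 tested lower. The summed level of the 6 oligodendrocyte markers was 2040 to 8090 CPM in mPFC and 5650 to 20300 CPM in OFC, with 6 of 6 lower in mPFC and 0 passing. The 8 cortical interneuron markers include Sst and Npy. Their summed level was 935 to 1150 CPM in mPFC perseverers and 1220 to 1560 CPM in mPFC renouncers. Of these 8 markers, 6 were lower and 2 higher in perseverers, with a median log2 difference of -0.252, and 0 passed. The summed level of the 10 excitatory neuron markers was 4110 to 6950 CPM in mPFC perseverers and 3120 to 3950 CPM in mPFC renouncers, with 9 of 10 higher in perseverers and 0 passing. In the same comparison 6 of 6 meningeal fibroblast markers were higher (median log2 difference 0.634, summed 28.7 to 65.9 CPM in perseverers and 26.2 to 34.5 CPM in renouncers). Of 7 tested neuroblast and olfactory bulb markers, 6 were higher (median 0.864, summed 206 to 294 and 184 to 222 CPM), and 0 of either list passed. Between phenotypes in OFC dissections, 8 of 10 excitatory neuron markers were higher in perseverers (median 0.205, summed 4540 to 5410 CPM against 3310 to 4330 CPM in renouncers). There 6 of 8 interneuron markers were lower (median -0.186, summed 925 to 1200 against 1130 to 1310 CPM). In OFC 6 of 6 meningeal fibroblast markers were lower (median -0.729), 6 of 7 tested neuroblast and olfactory bulb markers were higher (0.102), and none of these lists had a passing gene. The part of all these markers in the Nos1 differences was not tested.

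Nos1ap encodes an adaptor protein that binds neuronal nitric oxide synthase. Its level in OFC was 93.4, 62.0 and 74.2 CPM in renouncers and 82.3, 97.7 and 77.9 CPM in perseverers. In mPFC it was 69.8, 60.4 and 91.2 CPM in renouncers and 85.4, 99.1 and 64.4 CPM in perseverers. The 4 groups overlapped throughout, with means of 73.8 ± 15.8 to 86.0 ± 10.4 CPM. The log2 difference of Nos1ap was -0.05 ± 0.138 between mPFC and OFC and 0.17 ± 0.215 between phenotypes in mPFC, so the adaptor did not show the pattern of its enzyme.

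Nos3 encodes the endothelial synthase of the vessel wall. In OFC it was at 10.5, 8.96 and 6.23 CPM in renouncers and 10.6, 6.91 and 10.6 CPM in perseverers. In mPFC it was at 10.5, 7.10 and 6.25 CPM in renouncers and 6.60, 7.67 and 8.52 CPM in perseverers. All groups overlapped, and the log2 difference was -0.20 ± 0.194 between areas and -0.07 ± 0.314 between phenotypes in mPFC. The annotation places 32.3% of the exonic bases of Nos3 under exons of Atg9b or Gm15587, and the libraries do not keep strand, so its counts are uncertain. The 8 endothelial markers summed to 107 to 162 CPM in OFC and to at most 154 CPM in mPFC, which also overlap. Nos2, the synthase induced in immune cells, stayed at 0 to 2.06 CPM in the dissections and did not pass the low-count filter of the area or phenotype comparisons.

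Prkg1 and Prkg2, which encode the cGMP-dependent kinases of type I and type II, were both at higher mean levels in mPFC. Prkg2 was at 14.0, 17.3 and 11.6 CPM in OFC renouncers and 17.2, 17.2 and 15.2 CPM in OFC perseverers. In mPFC it was at 32.4, 31.7 and 19.3 CPM in renouncers and 18.3, 27.7 and 34.0 CPM in perseverers. The lowest mPFC library was above the highest OFC library, but mPFC values ran widely within each phenotype. The log2 difference of Prkg2 between mPFC and OFC was 0.82 ± 0.176, or 1.77-fold, and that between phenotypes in mPFC was -0.06 ± 0.278. Unlike Nos1, Prkg2 did not separate the mPFC groups.

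Prkg1 was at 5.41, 6.57 and 3.78 CPM in OFC renouncers and 4.35, 6.58 and 4.36 CPM in OFC perseverers. In mPFC it was at 11.8, 9.31 and 7.27 CPM in renouncers and 8.01, 7.89 and 6.38 CPM in perseverers. One mPFC library, at 6.38 CPM, lay below the highest OFC library, so the areas overlapped. The log2 difference of Prkg1 between mPFC and OFC was 0.69 ± 0.203, or 1.62-fold. It was 0.85 ± 0.292 in renouncers and 0.54 ± 0.292 in perseverers, and between phenotypes in mPFC Prkg1 differed by -0.35 ± 0.299, with overlap.

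Per kilobase of deposited gene length, the scale on which genes can be compared, Nos1ap was the most abundant member in each of the 4 groups of dissections, at 8.19 ± 1.75 to 9.54 ± 1.15 CPM per kilobase. Prkg2 followed at 3.04 ± 0.615 to 5.92 ± 1.57, then Nos3 at 1.84 ± 0.234 to 2.27 ± 0.514 CPM per kilobase. Prkg1 was at 0.691 ± 0.174 to 1.28 ± 0.305 CPM per kilobase. Nos1 was at 0.871 ± 0.163 and 0.997 ± 0.256 CPM per kilobase in OFC renouncers and perseverers, below Nos3. In mPFC it was at 1.89 ± 0.243 in renouncers, within the spread of Nos3 there (1.93 ± 0.544), and at 3.47 ± 0.435 in perseverers, above Nos3 (1.84 ± 0.234).

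The genes lie apart in the genome (GRCm38, GENCODE M21). Nos1 is on chromosome 5 from 117781032 to 117958840, plus strand, Prkg2 on chromosome 5 from 98929773 to 99037351, minus strand, and Nos3 on chromosome 5 from 24364810 to 24384474, plus strand. Nos1ap is on chromosome 1 from 170302668 to 170589861, minus strand, and Prkg1 on chromosome 19 from 30564489 to 31765033, minus strand. All are protein-coding in that annotation, but the annotation used for counting is not named. Deposited lengths differ from its exonic bases, at 9695 against 11151 for Nos1, 9016 against 7249 for Nos1ap and 7378 against 10861 for Prkg1. For Prkg2 they were 4696 against 5369, and for Nos3 4123 against 4132. Positions and overlaps therefore describe gene models that may not be those counted. Exons of other genes overlap 2.4% of the exonic bases of Nos1, 2.36% of those of Nos1ap and none of those of either kinase.

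In OFC dissections the members could be tested between phenotypes, since that contrast was not used to choose them. None of the 5 passed (edgeR, adjusted p = 0.951 to 0.995), as for all 14621 genes tested (0%, with 377 genes at an unadjusted p under 0.05 by edgeR, 420 by DESeq2 and 1021 by limma). The log2 difference, perseverer minus renouncer, was 0.19 ± 0.252 for Nos1, 0.16 ± 0.184 for Nos1ap, 0.11 ± 0.262 for Nos3, -0.05 ± 0.302 for Prkg1 and 0.20 ± 0.199 for Prkg2. All groups overlapped. Without OFC perseverer replicate 2 the Nos1 difference turned to -0.05.

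The rest of the pathway was followed with 81 genes in 7 lists that do not contain the members. Between areas, 60 of them were tested and 1 passed, or 1.67% against 1.85% of all genes. Of the 60, 31 were higher and 29 lower in mPFC, with a median log2 difference of 0.012 against 0.0011 over all genes. The one that passed was Rgs2, a regulator of G protein signalling and a substrate of the type I kinase. Rgs2 was at 51.9, 53.4 and 62.8 CPM in OFC renouncers and 53.4, 51.1 and 42.8 CPM in OFC perseverers. In mPFC Rgs2 was at 89.5, 93.4 and 86.9 CPM in renouncers and 70.0, 75.7 and 64.1 CPM in perseverers, all above the OFC libraries. Its log2 difference was 0.60 ± 0.097 (edgeR, adjusted p = 0.00484), and in one fit of all 17 libraries the call was lost at an adjusted p of 0.308. The count of 1 rose to 2 without OFC perseverer replicate 1 or replicate 2, to 3 without mPFC renouncer replicate 3 and to 4 without mPFC perseverer replicate 3. With same-numbered libraries of the areas fitted as pairs the count was 7, with 7.97% of all genes passing. The area tests given here do not pair libraries.

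Soluble guanylyl cyclase, the receptor of nitric oxide, had 3 of 4 subunit genes tested and 0 passing between areas. Gucy1a1 was at 61.8 ± 15 CPM in OFC and 88.1 ± 25.5 CPM in mPFC (SD, n = 6; edgeR, adjusted p = 0.217), and Gucy1b1 was at 64.1 to 109 and 94.8 to 113 CPM (edgeR, adjusted p = 0.314). Gucy1a2 was at 17 ± 3.79 and 16.5 ± 8.36 CPM, and Gucy1b2 was too low to be tested. Among the membrane cyclases and natriuretic peptides, 0 of 6 tested genes passed. Nppc, which encodes C-type natriuretic peptide, a ligand for a membrane cyclase, was at 6.59 ± 2.01 CPM in OFC and 11.7 ± 1.11 CPM in mPFC without overlap (log2 difference 0.82 ± 0.2; edgeR, adjusted p = 0.0502). Among the cGMP phosphodiesterases, 0 of 11 tested genes passed, and Pde1a, a calmodulin-dependent enzyme, was at 190 ± 34.1 CPM in OFC and 266 ± 49.4 CPM in mPFC (edgeR, adjusted p = 0.116). For cofactor and arginine supply, 0 of 13 passed. Qdpr, which recycles tetrahydrobiopterin, was at 357 to 691 CPM in OFC and 178 to 473 CPM in mPFC (edgeR, adjusted p = 0.0719). Over all alternatives (edgeR, DESeq2 and limma) the adjusted p ran from 0.00519 to 0.48 for Nppc and 0.000176 to 0.662 for Qdpr. It ran from 0.00196 to 0.703 for Pde1a, and its lowest value was 0.0198 for Gucy1a1 and 0.0688 for Gucy1b1. The binding partners of the synthases (0 of 13 passing) included Dlg4, the synaptic scaffold that holds neuronal synthase, at a log2 difference of 0.02 ± 0.161, and 0 of 7 denitrosylation enzymes passed.

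**Figure D3:**
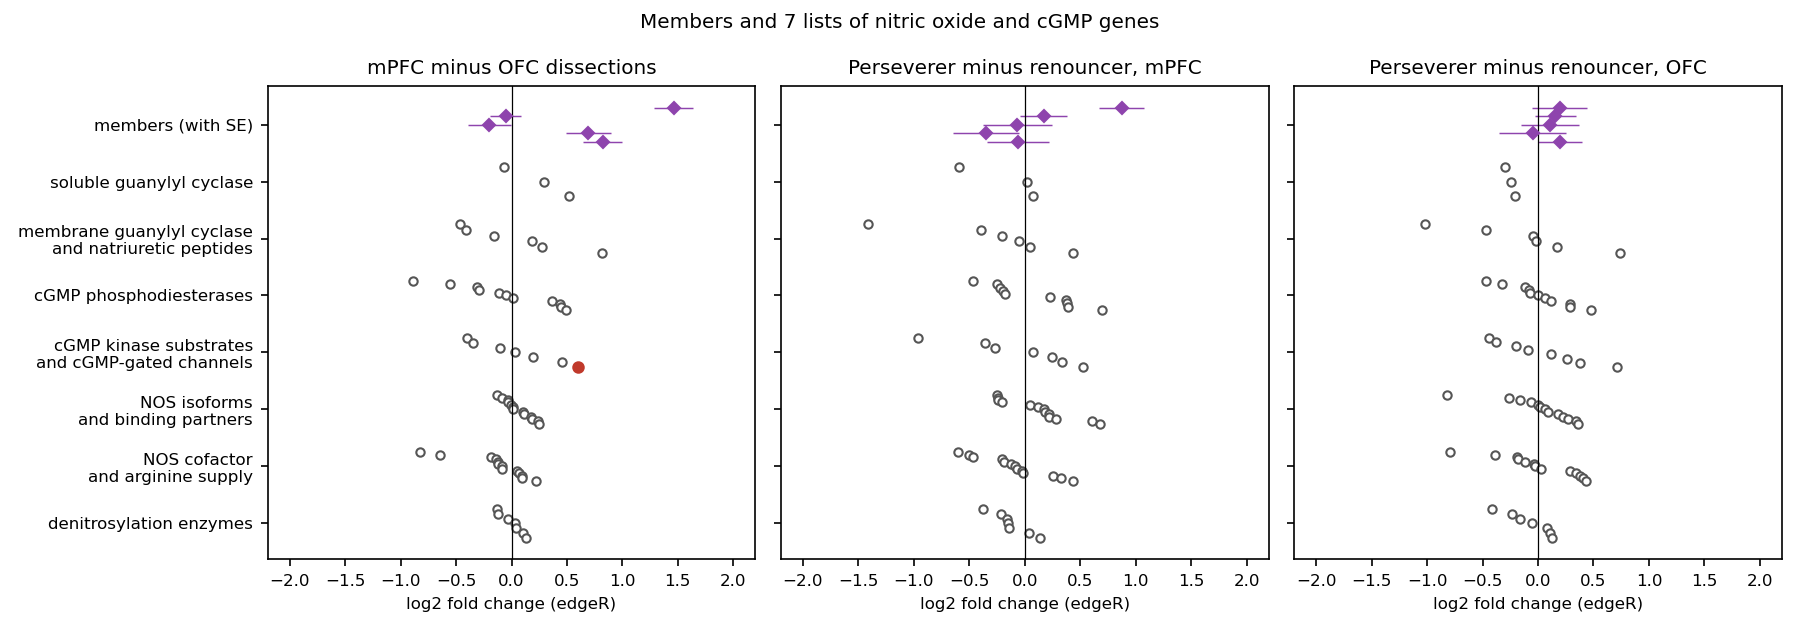
Log2 differences (horizontal axes, edgeR) of the 5 members (diamonds with SE, from top Nos1, Nos1ap, Nos3, Prkg1, Prkg2) and of the tested genes of 7 pathway lists (circles, rows) for mPFC minus OFC and for perseverer minus renouncer in each area; filled circles passed an adjusted p of 0.05. Only Rgs2 among the circles is filled, in the comparison between areas. The Nos1 diamonds are at 1.46, 0.88 and 0.19, of which the area and mPFC phenotype values were used to choose the gene.

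Between phenotypes none of these genes passed (edgeR). In mPFC 59 were tested, 27 higher and 32 lower in perseverers, with a median log2 difference of -0.053 against 0.0035 over all genes and 2 at an unadjusted p under 0.05. These were Rgs2, at -0.36 ± 0.156, and Cbr1, a carbonyl reductase that acts on nitrosylated glutathione, at -0.38 ± 0.155 (edgeR, adjusted p = 0.943 for both). At that unadjusted level DESeq2 had 3 of the 59 and limma 6, with 0 passing. In OFC 61 were tested, 29 higher and 32 lower, with a median of -0.021 against 0.001 over all genes and 3 at an unadjusted p under 0.05 (4 by DESeq2 and 6 by limma, 0 passing). Npr3, the clearance receptor for natriuretic peptides, was at 8.20, 13.0 and 6.95 CPM in OFC renouncers and 4.11, 4.71 and 5.17 CPM in OFC perseverers (log2 difference -1.02 ± 0.278; edgeR, adjusted p = 0.951). Cbr1 was lower in every OFC perseverer (68.8 to 85.7 CPM) than in every OFC renouncer (at least 87.2 CPM), at -0.41 ± 0.161 with an adjusted p of 0.951 (edgeR). Of 63 pathway genes tested for a phenotype difference that itself differed between areas, 0 passed and 1 was at an unadjusted p under 0.05 (edgeR; DESeq2 1, limma 6).

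In the imprints Nos1 was at the edge of detection. It had 24 counts in renouncer replicate 1, 3 in renouncer replicate 2 and 0 in renouncer replicate 3 and both perseverers. The levels were 3.66 and 3.01 CPM outside haemoglobin in the libraries with counts. Where the count was 0, up to 3 counts are allowed, or 2.77 CPM in renouncer replicate 3 and 2.3 and 3.06 CPM in the perseverers (counting error only). Nos1 levels in OFC dissections on the same scale were 7.19 to 12.7 CPM, above all of these. The counting error of the 3 counts in renouncer replicate 2 was not worked out, so that separation is of observed levels only. Prkg1 was at 6.10, 0 and 1.85 CPM in the renouncer imprints and 0 in both perseverer imprints. Its counts do not separate the phenotypes either, since the floors reach 3.06 CPM.

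Nos1ap was detected in every imprint, at 169, 14.1 and 55.4 CPM in renouncers and 77.3 and 30.6 CPM in perseverers. Nos3 was at 36.3, 2.01 and 8.31 CPM in renouncers and 0 and 2.04 CPM in perseverers. Prkg2 was at 12.8, 4.02 and 12 CPM in renouncers and 20.7 and 3.06 CPM in perseverers. The imprints of one phenotype thus differed severalfold, and for Nos1ap, Nos3 and Prkg1 the highest value was in renouncer replicate 1, the library with the least haemoglobin. In that library the 8 endothelial markers summed to 427 CPM, against 38.2 to 127 CPM in the other imprints. Their part in the Nos3 value was not tested.

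Nos1, Nos3 and Prkg1 did not pass the low-count filter for the test between imprint phenotypes. Nos1ap differed by -0.26 ± 0.621 and Prkg2 by 0.22 ± 0.98 on the log2 scale (edgeR, adjusted p = 1 for both). In that comparison 0 of 10530 genes (0%) passed, with 181 at an unadjusted p under 0.05 (237 by DESeq2 and 529 by limma, which also called 0). In simulated counts this edgeR test recovered 0% of genes changed 4-fold, so it could not show such differences. Without renouncer replicate 1 the Nos1ap difference was 0.41. Of the 46 pathway genes tested, 13 were higher and 33 lower in perseverers, with a median of -0.209 against -0.0265 over all genes, and 0 passed or reached an unadjusted p under 0.05 (0 by DESeq2 and 3 by limma).

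**Figure D4:**
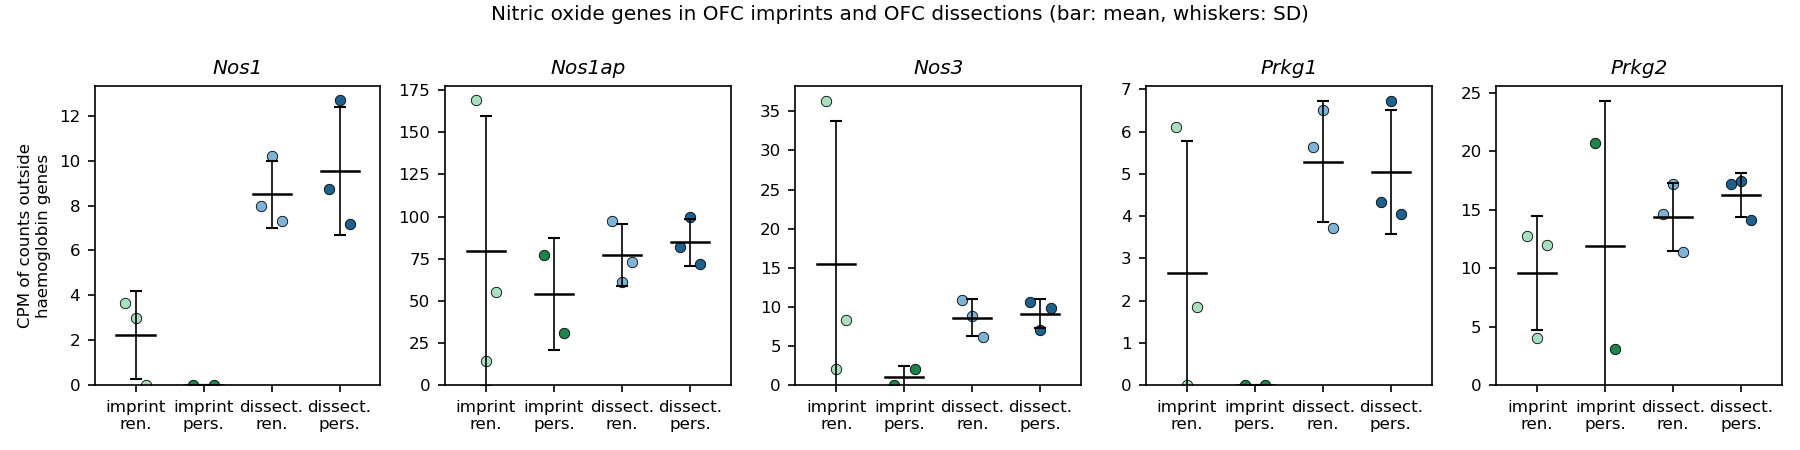
Level of each of the 5 genes (vertical axis, CPM of the counts outside haemoglobin genes, linear from 0) in OFC imprints and OFC dissections of each phenotype; points are libraries, horizontal bars means and whiskers SD (3 libraries, 2 for perseverer imprints), with whiskers drawn only above 0. Nos1 lies below 4 CPM in all imprints and at 7.19 to 12.7 CPM in all dissections, while renouncer imprint replicate 1 gives the highest Nos1ap and Nos3 values.

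OFC imprints and OFC dissections differ both in how the tissue was collected and in the time relative to the protocol, so these cannot be told apart. The log2 differences and tests below use TMM scaling, while the levels shown are CPM outside haemoglobin. Sizes and signs on these scales need not match. Prkg2 averaged 9.61 CPM in renouncer and 11.9 CPM in perseverer imprints, with 11.4 to 17.5 CPM in OFC dissections, although its TMM difference was 0.21. Nos1 was lower in the imprints by a log2 difference of -1.87 ± 0.679, or 3.64-fold (edgeR, adjusted p = 0.0442, lower in 5 of 5 imprints than in all 6 dissections). In that comparison 4708 of 14236 genes, or 33.1%, passed, 15.6% as higher and 17.5% as lower in imprints. A share that large makes 1 passing member of 5 no result about the members. The Nos1 call was lost when imprint renouncer replicate 3, either imprint perseverer or any of the 6 dissections was left out (adjusted p up to 0.095), and held without imprint renouncer replicate 1 (-2.59, adjusted p = 0.0359). Over all alternatives its adjusted p ran from 0.000636 to 0.0971. Over other ways of processing the log2 difference of Nos1 ran from -5.505 to -1.741, so its size is not well determined. Nos1ap differed by 0.39 ± 0.291 (edgeR, adjusted p = 0.325), Nos3 by 0.51 ± 0.661 (0.591 by the same adjustment), Prkg1 by -0.85 ± 0.648 (0.336) and Prkg2 by 0.21 ± 0.363 (0.687). Without imprint renouncer replicate 1 Nos3 was at -0.48, and Prkg1 was at -2.42 and passed (edgeR, adjusted p = 0.0478).

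Sst and Npy, the markers of Nos1 interneurons that could be tested, were also lower in imprints, Sst by a log2 difference of -1.81 ± 0.317 and Npy by -0.89 ± 0.281 (edgeR, adjusted p = 0.000361 and 0.023). Of 8 cortical interneuron markers 7 passed as lower, and of 10 excitatory neuron markers 7 passed as lower, against 17.5% of all genes. The 6 microglia and macrophage markers all passed as higher, against 15.6% of all genes. The haemoglobin share, at 29.7 to 90.7% of imprint counts and at most 0.0787% of dissection counts, moved with the same comparison. The part of these cells in the Nos1 difference was not tested.

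Of 58 pathway genes tested between imprints and dissections, 25 passed, 11 higher and 14 lower in imprints, or 43.1% against 33.1% of all genes. Their median log2 difference was -0.078 against -0.1321 over all genes. With a stricter low-count filter 14 passed. Of the 13 genes tested for cofactor and arginine supply, 4 passed, all higher in imprints (30.8% of those tested). Of all genes 15.6% passed as higher and 33.1% in either direction. Gchfr, the feedback regulator of the enzyme that makes tetrahydrobiopterin, was at 0.273 to 1.72 CPM in OFC dissections and 46.7 to 180 CPM in imprints (log2 difference 7.29 ± 0.455; edgeR, adjusted p = 1.28e-08). Gch1, that enzyme itself, was at 1.37 to 3.70 and 2.14 to 35.7 CPM, at a log2 difference of 3.73 ± 0.691 (edgeR, adjusted p = 0.00059). Arg2 and Ddah1, which break down arginine and methylated arginines, rose by 1.67 ± 0.537 and 0.94 ± 0.305 on the log2 scale, and 28.1% of the exonic bases of Arg2 lie under exons of other genes.

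Of the 3 tested subunit genes of soluble guanylyl cyclase, 2 passed as lower in imprints, where 17.5% of all genes did. Gucy1a2 did not pass (-0.35 ± 0.439, edgeR, adjusted p = 0.58). Gucy1b1 was at 59.3 to 107 CPM in OFC dissections and 15.3 to 38.8 CPM in imprints (log2 difference -1.04 ± 0.275; edgeR, adjusted p = 0.00808). Gucy1a1 was at 40.5 to 83.2 and 1.0 to 23.8 CPM (-1.53 ± 0.523; edgeR, adjusted p = 0.0334), a call lost without any of 7 single libraries, at adjusted p of 0.0528 to 0.0798. Those libraries were imprint renouncers 2 and 3, imprint perseverer 1, all 3 renouncer dissections and perseverer dissection 2. Of the 13 tested genes of synthase isoforms and binding partners, 4 passed, all lower in imprints (30.8%). Of all genes 17.5% passed as lower and 33.1% in either direction. The 4 that passed were from these partners. They were the calmodulin genes Calm2 (-1.74 ± 0.225) and Calm3 (-0.69 ± 0.206), the scaffold Dlg2 (-1.90 ± 0.261) and Rasd1, a small G protein bound through Nos1ap (-3.11 ± 0.738). Of 5 tested genes of membrane cyclases and natriuretic peptides 3 passed as lower (60%, against 17.5% of all genes), and Nppc fell by 4.33 on the log2 scale.

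Of 10 tested cGMP phosphodiesterases 5 passed (50%, against 33.1% of all genes), 2 higher and 3 lower in imprints. The calmodulin-dependent Pde1a was at 135 to 238 CPM in OFC dissections and 12.2 to 34.4 CPM in imprints (log2 difference -2.24 ± 0.251; edgeR, adjusted p = 4.85e-06), and Pde1b fell by 1.64 on the log2 scale. Pde5a, the cGMP-specific enzyme of smooth muscle and platelets, was at 2.05 to 3.36 CPM in dissections and 0 to 17.3 CPM in imprints (2.96 ± 0.624; edgeR, adjusted p = 0.00168). Of 7 tested kinase substrates and cGMP-gated channels 5 passed (71.4%, against 33.1% of all genes), 3 higher and 2 lower. Vasp and Mrvi1, substrates known from platelets and smooth muscle, rose by 3.85 ± 0.328 and 4.08 ± 0.485 on the log2 scale, from 3.63 to 6.55 CPM to 25.5 to 55.9 CPM for Vasp and from 0.939 to 2.74 CPM to 8.42 to 18.5 CPM for Mrvi1. Itpr1, a calcium release channel of neurons, fell 2.83-fold. The 8 smooth muscle and pericyte markers summed to 59.7 to 68.4 CPM in OFC dissections and 6.02 to 187 CPM in imprints, and 0 of 7 tested passed. The part of blood cells in these values was not tested.

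The genes whose levels across the 12 dissections were most like Nos1 were Mapk3, an ERK kinase (Pearson r = 0.923 on log2 CPM), Cyp4f15, a cytochrome P450 (0.921), Rxrg, a retinoid X receptor (0.918), Plppr3, a membrane protein of neurons (0.917), and Necab2, a neuronal calcium-binding protein (0.913), out of 14409 genes. The most opposite were Kat2b, a histone acetyltransferase (r = -0.946), Vamp1, a synaptic vesicle fusion protein (-0.944), Lysmd2 (-0.931), Krt222 (-0.915) and Sptbn5, a spectrin (-0.914). Kat2b was at 7.39 to 10.1 CPM in OFC, 5.92 to 7.06 CPM in mPFC renouncers and 3.16 to 4.98 CPM in mPFC perseverers, so its 3 levels mirrored those of Nos1. The 12 points fall into 2 areas and 4 groups, and the correlations describe the same area and phenotype differences that chose Nos1. After each group's mean was subtracted, the most alike were Tram1 (0.922), Atg4b (0.89) and Dse (0.883). The most opposite were Kat8 (-0.939), Fgfr1op (-0.903) and Gnl3 (-0.901), and none of these was among the 10 named for the levels themselves. With RLE, another scaling, Necab2, Atg4b and Gnl3 were no longer among the 5 on their side. All are extremes picked from 14409 genes over 12 libraries, and how high unrelated genes would rank was not tested.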

How the data were processed

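Bulk RNA was extracted with a Qiagen micro kit and made into SMART-Seq v4 and Nextera libraries, per the labels' protocols, a method that does not keep strand. The authors deposited raw counts per gene in 3 tables (OFC imprints, OFC dissections, mPFC dissections), each with a gene length in bases. FastQC 0.11.8 and the build mm10 are named in the submitters' processing notes, while no source used here names the aligner, counter or annotation. Low genes were removed with filterByExpr, counts were scaled by TMM and tested with edgeR 4.0.16 (R 4.3.3) by robust quasi-likelihood over all kept genes, with Benjamini-Hochberg adjustment at 0.05. Each comparison was fitted on its own groups. The script was tested on simulated counts with changes of known size. At 2-fold it recovered 79.1% of changed genes between areas, 25.8% between phenotypes in mPFC and 50.7% in OFC. It recovered 9.09% between imprints and dissections, and 1.52% where the phenotype difference differed between areas. Between imprint phenotypes it recovered 0% at 4-fold. Where 0 genes passed between phenotypes, differences of such sizes could have been missed. DESeq2 1.42.0, limma 3.58.1 voom with quality weights, other scalings and filters, a fit of all 17 libraries, a replicate block, a correction for transcript length and leaving out each library were the alternatives. Fits without haemoglobin genes were added after seeing the data.

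The 5 members and the lists were chosen with earlier results of these data known. The members are always named. Of each pathway list up to 4 genes past the threshold were eligible, or up to 2 of the smallest p where none passed, and Dlg4, Nos2, Gucy1a2 and Gucy1b2 were named outside that rule, chosen after their values were seen. Genes most like Nos1 are the 5 highest and the 5 lowest Pearson correlations of log2 CPM (prior count 2), leaving out predicted gene names. Libraries were compared first, and no pair was identical. Depth limits precision: a gene with no counts in an imprint could hold up to 3, which is 0.458 to 3.06 CPM outside haemoglobin. Exon overlap was taken from GENCODE M21 (GRCm38).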

Additional observations from a re-analysis of the deposited data

How the results depend on the processing

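The Nos1 difference between mPFC and OFC ran from 1.44 to 1.51 over the alternatives and from 1.36 to 1.57 with 1 library left out, and that between phenotypes in mPFC from 0.80 to 0.98 with 1 left out and at 0.67 with the length trend removed. Between areas 266 genes (1.85%) passed, against 691 (4.8%) with DESeq2, 899 (6.24%) with limma, 21 (0.134%) in one fit of 17 libraries, 538 (3.73%) at an adjusted p of 0.1 and 0.818 to 3.25% of genes with 1 library left out. The pathway count of 1 became 4 with DESeq2, 6 with limma, 0 in the fit of all libraries, 2 with the length trend removed, 4 at 0.1 and 1 to 4 with 1 left out. Same-numbered libraries of the 2 areas correlated at 0.019 to 0.413, 5 of 6 above 0.1, and their sample names carry adjacent numbers. The labels do not say that they come from the same animal, and the main fit does not pair them. Whether they are pairs is not settled here. With the replicate block 1148 genes (7.97%) and 7 pathway genes passed between areas, and 5 of 6 libraries matched their own number best. With the block the imprint minus dissection difference of Nos1 was -2.21 (adjusted p = 0.0971). It was -1.79 with RLE scaling (0.058), -1.74 with the length trend removed (0.068) and -2.59 to -1.44 with 1 left out. Over all other ways of processing it ran from -5.505 to -1.741, so its size is not well determined. The OFC phenotype difference of Nos1 ran from -0.05 to 0.34 with 1 left out, and its excess in mPFC from 0.51 to 0.96. In the fit of all libraries 63 genes (0.402%) passed between imprint phenotypes, and with the stricter filter 14 pathway genes between imprints and dissections. The causes were not tested.

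Signs turned for values that passed no test. With 1 library left out, the OFC phenotype difference ran from -0.085 to 0.292 for Nos3 and from -0.292 to 0.122 for Prkg1, whose positive values were 0.122, 0.063 and 0.061. Between imprint phenotypes Nos1ap ran from -0.622 to 0.41 and Prkg2 from -0.995 to 0.869, and Nos1ap was at 0.056 with limma and 0.106 with the length trend removed. Between imprints and dissections Nos3 ran from -0.48 to 1.085 and Prkg2 from -0.096 to 0.397, and Nos3 was at -0.486 with limma and -0.558 in the fit of all libraries. Nos1ap passed there with the length trend removed (0.72, adjusted p = 0.0216), and Prkg1 in the fit of all libraries (-4.52, adjusted p = 0.0136).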
